A study of Mus musculus with 8 samples.

Results

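Transcripts of respiratory chain complex I were followed through every probe set whose gene symbol begins with Nduf, 46 probe sets for 46 genes out of 22206 on the array. They comprise 8 subunits of the N module, 8 of the Q module, 9 of the proximal pump and 10 of the distal pump, 8 Ndufaf assembly factors, the copy Ndufb4b and the pair Ndufa4 and Ndufa4l2. All 46 passed the filter on low values that left 14804 probe sets for testing. Ndufb1 and the mitochondrially encoded subunits were not analysed here. Ndufa4 and Ndufa4l2 keep the Nduf name but are known as complex IV subunits, and Ndufb4b is a near-identical copy of Ndufb4, so signal may be shared between these 2 genes.

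The study exposed male mice aged 12 weeks to clothianidin, a neonicotinoid insecticide that acts on nicotinic acetylcholine receptors, at 50 mg/kg/day, the dose described as having no observed adverse effect. Control mice received the vehicle, 1% DMSO, over the same 2 weeks. RNA from cerebral cortex and hippocampus gave 4 groups of 2 arrays each: vehicle cortex and vehicle hippocampus (sample numbers 1 and 6) and exposed cortex and exposed hippocampus (numbers 3 and 6). The strain is not stated, and nothing says that the samples of a group came from separate animals, so the p-values below reflect how much these particular samples vary, and part or all of that variation may be technical. In bulk tissue, fewer cells of a type and less RNA per cell cannot be told apart.

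Complex I takes electrons from NADH in its matrix arm, where the N module holds the flavin and the Q module passes electrons to ubiquinone, and pumps protons through the membrane arm built from the proximal and distal pump modules. Core subunits carry the redox centres and accessory subunits surround them, while assembly factors help to build the complex and do not stay in it. Neurons rely on oxidative phosphorylation for the energy that synaptic activity and ion pumping consume.

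Values are log2 array signals, compared gene by gene between groups and never between probe sets. Medians over all probe sets lay between 5.21 and 5.40 on the 8 arrays. Of 10 cerebral cortex markers, 8 were lower in hippocampus past the threshold and 1 was higher, and all 9 hippocampus markers tested were higher there, as the tissue labels have it. Ttr, the choroid plexus transthyretin gene, read 15.41 on vehicle cortex number 6 and 19.51 on vehicle hippocampus number 1, against 4.17 to 7.76 on the other 6 arrays. The summed choroid plexus list, all 11 of whose genes were measured, spanned log2 7.68 to 15.43 in cortex and 8.96 to 19.56 in hippocampus. A probe set is called here when its Benjamini-Hochberg adjusted p in limma is under 0.05.

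**Figure D1:**
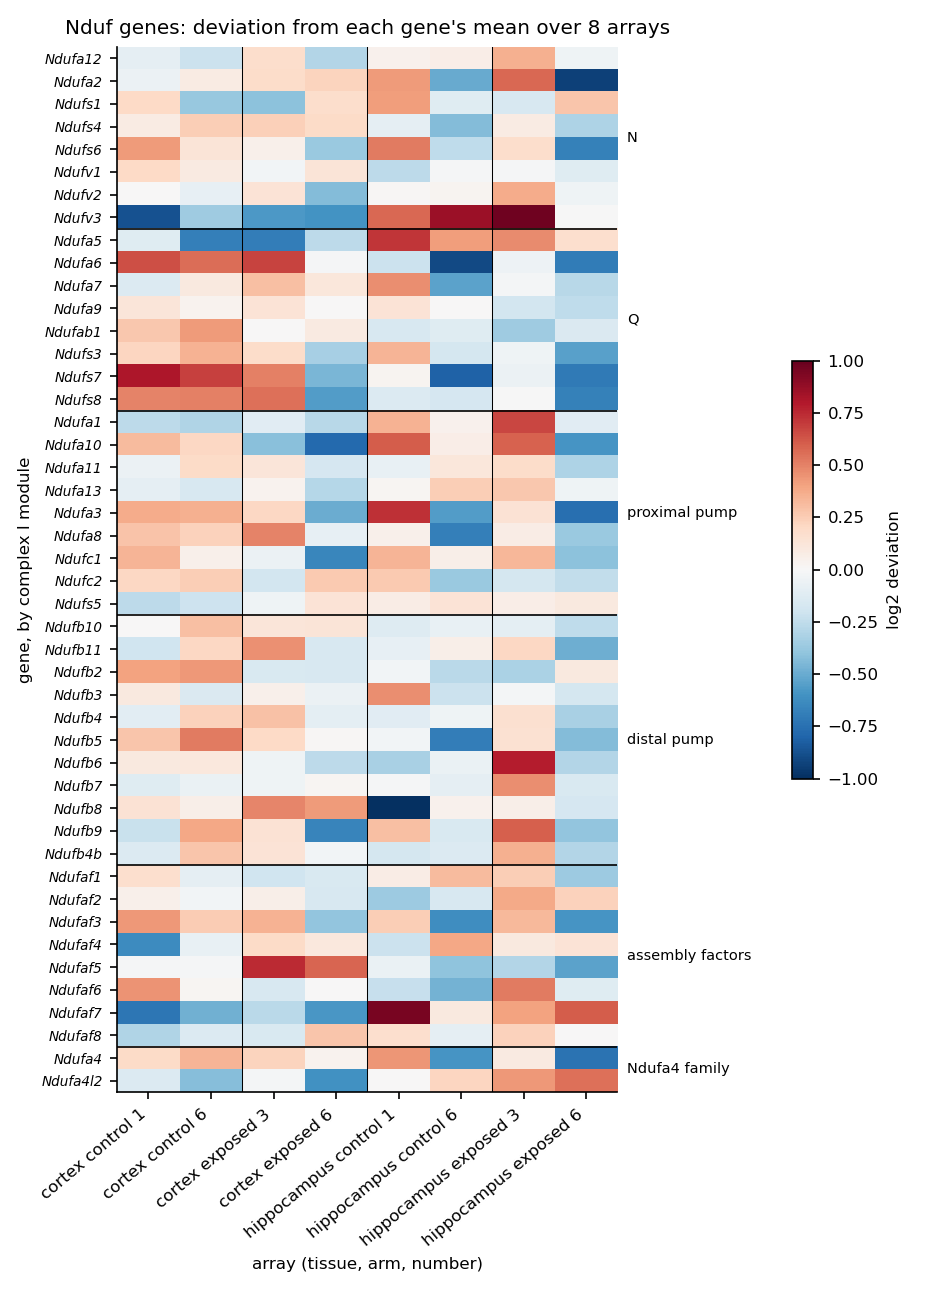
Colour shows the log2 value of each of the 46 Nduf probe sets (rows, by module) on each of the 8 arrays (columns, by group) relative to that gene's mean over the arrays. Exposed hippocampus number 6 holds the lowest value of 15 members and exposed hippocampus number 3 the highest value of 12.

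Clothianidin exposure in cortex was asked about first. No Nduf gene was called in exposed against vehicle cortex. At an unadjusted p under 0.05 in limma, 3 of the 46 members passed, where 6.18% of all probe sets did, and 1 probe set of 14804 was called (0.00675%), which is not a member. The exposed mean was lower for 29 members and higher for 17, with a median log2 difference of -0.06 against -0.03 over all probe sets tested. The arrays of the 2 groups did not overlap for 12 members lower after exposure, beside 21.4% of all probe sets, and for 7 members higher, beside 17.1%.

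Ndufa10, an accessory subunit of the proximal pump, had the largest fitted decrease of any member in cortex. It read 13.07 and 12.96 in vehicle cortex and 12.33 and 11.97 in exposed cortex. Both exposed arrays were below both vehicle arrays, with a log2 difference of -0.87 (SE 0.34, 95% interval -1.61 to -0.12, adjusted p = 0.78). Ndufb2, a distal pump accessory subunit, read 9.88 and 9.91 in vehicle and 9.33 and 9.32 in exposed cortex. Its replicates lay close together in each group and the groups did not overlap, with a log2 difference of -0.57 (SE 0.25, adjusted p = 0.80).

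Ndufs7 is a core subunit of the Q module that carries the last iron-sulfur cluster before ubiquinone. Vehicle cortex read 12.20 and 12.08 and exposed cortex 11.90 and 10.94. The exposed arrays were both lower but lay far apart, and the log2 difference of -0.72 (SE 0.36) had an adjusted p of 0.81. Ndufc1, a small proximal pump subunit, read 13.78 and 13.49 in vehicle and 13.38 and 12.79 in exposed cortex. Here too the groups did not overlap, and the log2 difference was -0.55 (SE 0.29, adjusted p = 0.81). Without exposed cortex number 6, the log2 difference of Ndufs7 was -0.24 and that of Ndufc1 was -0.26, and without number 3 they were -1.20 and -0.85.

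In the other direction, Ndufaf5, an assembly factor that hydroxylates an arginine of Ndufs7, had the lowest unadjusted p of all members. It read 8.41 on both vehicle arrays and 9.17 and 9.01 after exposure. The exposed pair was clear of the vehicle pair, with a log2 difference of 0.68 (SE 0.26, 95% interval 0.12 to 1.24, adjusted p = 0.78). Ndufaf4, an assembly factor that works with Ndufaf3 on the Q module, read 9.97 and 10.53 in vehicle and 10.79 and 10.71 in exposed cortex. The groups did not overlap, although the vehicle arrays differed by more than the exposed ones, and the log2 difference was 0.50 (SE 0.28, adjusted p = 0.81). It was 0.22 without vehicle number 1 and 0.78 without vehicle number 6, the cortical array high in Ttr.

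Ndufs5, a proximal pump accessory subunit, read 10.95 and 11.01 in vehicle and 11.17 and 11.35 in exposed cortex, a log2 difference of 0.28 (SE 0.22, adjusted p = 0.87). Ndufb8, a distal pump subunit often used as a marker of assembled complex I, read 8.38 and 8.29 against 8.72 and 8.66, a log2 difference of 0.36 (SE 0.33, adjusted p = 0.89). Both were higher on each exposed array, by amounts close to their standard errors.

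By module, the Q module leaned furthest in cortex, with 7 of its 8 members lower after exposure and a median log2 difference of -0.29, 0 of them called. All 6 nuclear core subunits measured were lower, with a median of -0.23 and a range of -0.72 to -0.03. The lean of both lists lay mostly on exposed number 6. For the core subunits, median deviations from each gene's mean were 0.21 and 0.22 in vehicle cortex, 0.16 on exposed number 3 and -0.38 on number 6. For the Q module they were 0.24, 0.39, 0.24 and -0.14 in that order. The N module divided evenly, 4 lower and 4 higher, with a median of 0.00, as did the distal pump, 5 and 5, with a median of -0.01. The proximal pump had 6 lower and 3 higher (median -0.09) and the Ndufaf factors 4 and 4 (median 0.06). The 95% interval of the difference lay within 2-fold either way for 32 of the 46 members, so a larger change remained possible for the other 14. The member median went from -0.06 to 0.06 when exposed cortex number 6 was left out, with 18 members then lower. The tested choroid plexus markers were lower in exposed cortex for 8 of 10 (median -0.45), and without the 2 arrays high in Ttr the member median was -0.09. All 9 microglial markers had lower means in exposed cortex (median -0.31), as had 7 of 8 oligodendrocyte markers (median -0.26). The part of these cell types in the Nduf values was not tested.

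**Figure D2:**
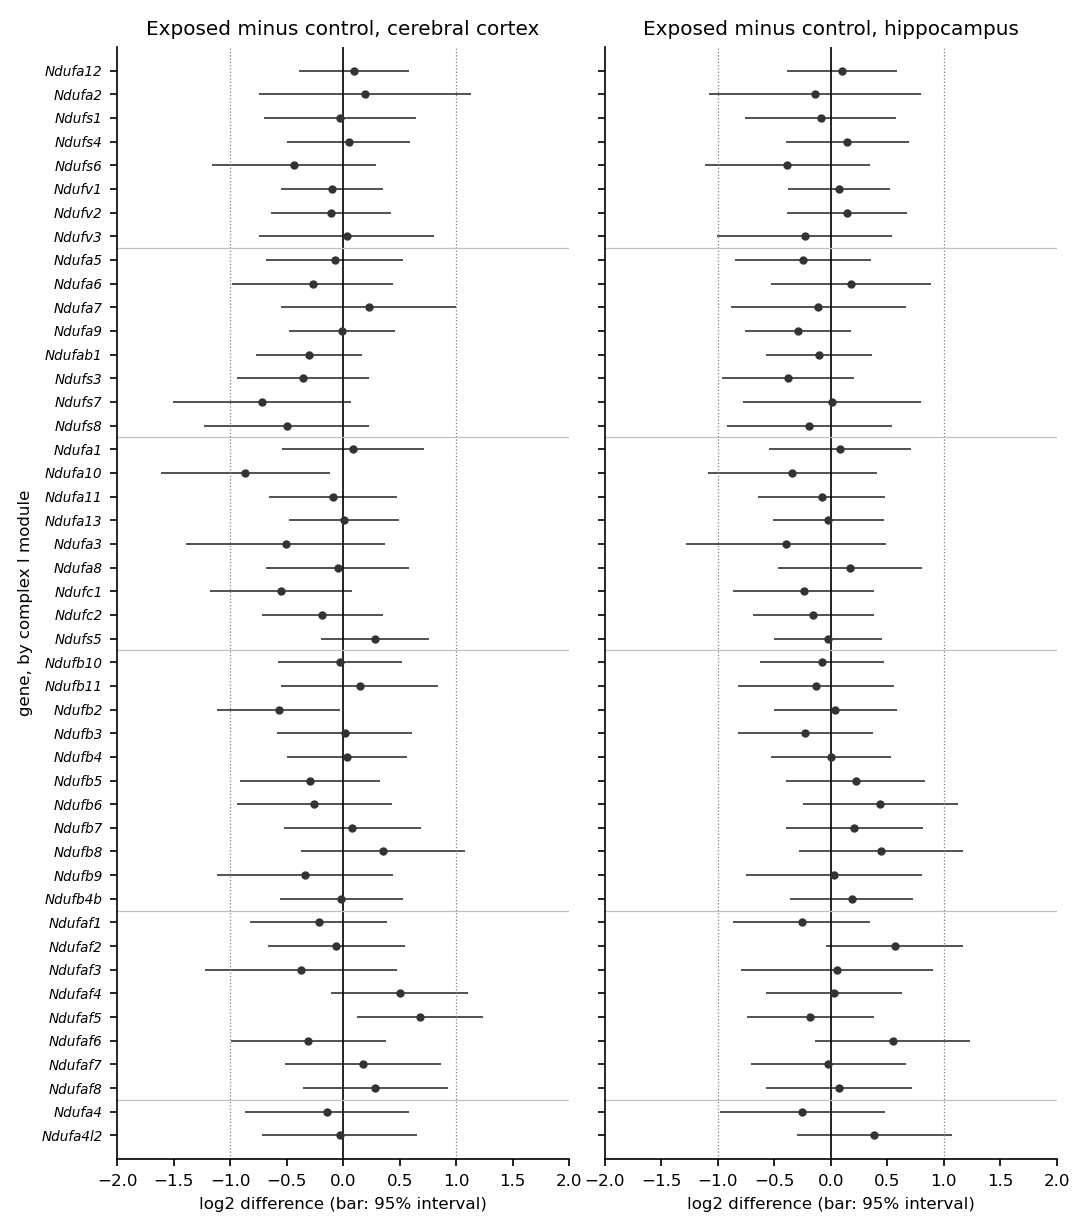
Points give the fitted log2 difference, exposed minus vehicle, of each Nduf gene in cortex and in hippocampus, and bars give the 95% intervals from limma. In cortex Ndufa10 lies lowest at -0.87 and Ndufaf5 highest at 0.68, and no member is called in either tissue.

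In hippocampus, exposure again left no Nduf gene called, and 0 members had an unadjusted p under 0.05 in limma, where 5.81% of all probe sets did. Of all probe sets, 1 was called (0.00675%). The exposed mean was lower for 24 members, higher for 21 and equal for 1, with a median log2 difference of -0.02 against 0.01 over all probe sets. The arrays did not overlap for 1 member lower after exposure, beside 14% of all probe sets, and for 3 members higher, beside 16.7%. The 95% interval lay within 2-fold for 36 of 46 members.

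Ndufaf2, an assembly factor that acts late in building the matrix arm, had the lowest unadjusted p of the members in hippocampus. It read 5.06 and 5.26 in vehicle and 5.80 and 5.65 in exposed hippocampus. The groups did not overlap, and the log2 difference was 0.57 (SE 0.28, 95% interval -0.04 to 1.17, adjusted p = 0.86). Ndufaf6, another assembly factor, read 5.66 and 5.42 in vehicle and 6.41 and 5.77 after exposure. Both exposed arrays were higher, with a log2 difference of 0.55 (SE 0.31, adjusted p = 0.90) that was 0.23 without exposed number 3 and 0.87 without exposed number 6.

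Ndufb6, a distal pump subunit, read 11.28 and 11.54 in vehicle and 12.39 and 11.31 in exposed hippocampus. The high value of exposed number 3 made the log2 difference 0.44 (SE 0.31, adjusted p = 0.93), and it was -0.10 without that array and 0.98 without exposed number 6. Ndufb8 read 7.19 and 8.28 in vehicle and 8.29 and 8.07 after exposure. Its log2 difference of 0.45 (SE 0.33, adjusted p = 0.94) came with a low vehicle number 1, without which it was -0.10, and it was 0.99 without vehicle number 6.

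Of the members with lower means, Ndufa9, an accessory subunit that binds NADPH where the arms meet, was the one whose arrays did not overlap, at 11.80 and 11.67 in vehicle and 11.48 and 11.41 in exposed hippocampus. Its log2 difference was -0.29 (SE 0.21, adjusted p = 0.94). Ndufs3, a core Q module subunit, read 13.77 and 13.26 in vehicle and 13.39 and 12.89 in exposed hippocampus. The groups overlapped, with a log2 difference of -0.38 (SE 0.27, adjusted p = 0.93). It was -0.12 without vehicle number 1, the array high in Ttr, and -0.63 without vehicle number 6.

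Ndufs6, a zinc-binding N module subunit, read 11.95 and 11.17 against 11.60 and 10.75, and its log2 difference of -0.39 (SE 0.33, adjusted p = 0.96) became 0.04 without exposed number 6, 0.01 without vehicle number 1 and -0.81 without exposed number 3. Ndufa10 read 13.36 and 12.82 in vehicle and 13.34 and 12.16 in exposed hippocampus. The vehicle and exposed arrays overlapped, and the log2 difference of -0.34 (SE 0.34, adjusted p = 0.96) became 0.25 without exposed number 6, -0.93 without exposed number 3 and -0.07 without vehicle number 1. Across the modules the median ran from -0.15 for the Q module, 6 of 8 lower, to 0.04 for the Ndufaf factors, 3 of 8 lower. The member median of -0.02 became 0.18 without exposed number 6 and -0.18 without exposed number 3, with 11 and 37 members lower in turn. All 10 choroid plexus markers tested had lower means in exposed hippocampus (median -2.97), and without the 2 arrays high in Ttr the Nduf median was 0.15, with 19 members lower. Exposed hippocampus also had higher means for 8 of 10 cerebral cortex markers (median 0.53, 1 called) and 7 of 8 endothelial markers (median 0.40), and lower means for all 5 ependymal markers tested (median -0.34). Their part in the Nduf values was not tested.

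Whether the exposure differences differed between the tissues was tested as an interaction. No probe set was called (0%), while 511 of 14804 (3.45%) had an unadjusted p under 0.05 in limma. The member among them was Ndufaf5, whose exposure difference was 0.68 in cortex and -0.18 in hippocampus, an interaction of -0.86 (SE 0.36, adjusted p = 1.00). Averaged over both tissues, no member was called, 1 probe set of all was (0.00675%), and 5.97% of all probe sets had an unadjusted p under 0.05. Ndufa10 was the member with that unadjusted level, at an average log2 difference of -0.60 (adjusted p = 0.83). The 95% interval of the average lay within 2-fold for 44 of the 46 members, with Ndufa10 and Ndufa3 the exceptions. Both tissues gave a lower mean for 15 members, both a higher mean for 7, and 23 went opposite ways, or 50.0% against 41.8% of all probe sets.

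The tissues themselves differed in 6 Nduf genes over both arms. Ndufv3, Ndufaf7 and Ndufa5 were higher in hippocampus than in cortex, and Ndufa6, Ndufaf5 and Ndufs7 were lower, by 1.57-fold to 2.30-fold. The 3 called higher compare with 19.5% of all probe sets called higher, and the 3 called lower with 11.9% called lower, so both shares, 6.52% of members each, were below the background. Of all 46 members, 26 had a lower hippocampal mean, with a median log2 difference of -0.14 against 0.11 for all probe sets. Values did not overlap between all arrays of one tissue and all of the other for 4 members lower in hippocampus (11.5% of all probe sets) and 4 higher (19%).

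Ndufv3, a small accessory subunit of the N module, had the largest tissue difference of the members. It read 5.0, 5.52, 5.30 and 5.28 in cortex (vehicle numbers 1 and 6, then exposed numbers 3 and 6) and 6.45, 6.73, 6.85 and 5.87 in hippocampus in the same order. Every hippocampal array was above every cortical one, by a log2 difference of 1.20 (SE 0.25, 95% interval 0.65 to 1.75, 2.30-fold, adjusted p = 0.0035). Ndufaf7, a methyltransferase that acts during assembly of the complex, read 7.12, 7.36, 7.57 and 7.26 in cortex and 8.79, 7.94, 8.24 and 8.45 in hippocampus. No array overlapped, and the log2 difference was 1.03 (SE 0.22, 2.04-fold, adjusted p = 0.0044).

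Ndufa5, a Q module accessory subunit, read 10.43, 9.87, 9.86 and 10.29 in cortex and 11.27, 10.97, 11.03 and 10.72 in hippocampus. The tissues did not overlap, with a log2 difference of 0.89 (SE 0.20, 1.85-fold, adjusted p = 0.0051). Without the 2 arrays high in Ttr the difference was 0.67 with an adjusted p of 0.067, and the call ended. Ndufa6, the Q module subunit that anchors the mitochondrial acyl carrier protein Ndufab1 to the complex, went the other way. It read 11.14, 11.05, 11.17 and 10.48 in cortex and 10.28, 9.59, 10.44 and 9.79 in hippocampus, all hippocampal arrays being lower. The log2 difference was -0.94 (SE 0.23, 1.91-fold, adjusted p = 0.0093).

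Ndufaf5 read 8.41, 8.41, 9.17 and 9.01 in cortex and 8.36, 8.02, 8.13 and 7.89 in hippocampus. Hippocampus was lower on every array, but vehicle hippocampus number 1 came within 0.05 of the vehicle cortex arrays. The log2 difference was -0.65 (SE 0.18, 1.57-fold, adjusted p = 0.018). It was -0.22 in the vehicle arm alone (SE 0.26, adjusted p = 0.60) and -1.08 in the exposed arm alone. Ndufs7 read 12.20, 12.08, 11.90 and 10.94 in cortex and 11.42, 10.59, 11.34 and 10.69 in hippocampus. Exposed cortex number 6 lay among the hippocampal arrays, so the tissues overlapped, and the log2 difference was -0.77 (SE 0.26, 1.71-fold, adjusted p = 0.038). Both calls ended when any 1 of the same 5 arrays was left out (vehicle cortex 1 or 6, exposed cortex 3, vehicle hippocampus 6, exposed hippocampus 6), with adjusted p up to 0.061 for Ndufaf5 and 0.15 for Ndufs7, whose call also ended without the mean-variance trend. The other 3 calls, for Ndufv3, Ndufaf7 and Ndufa6, stood under each of the 16 alternatives run.

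**Figure D3:**
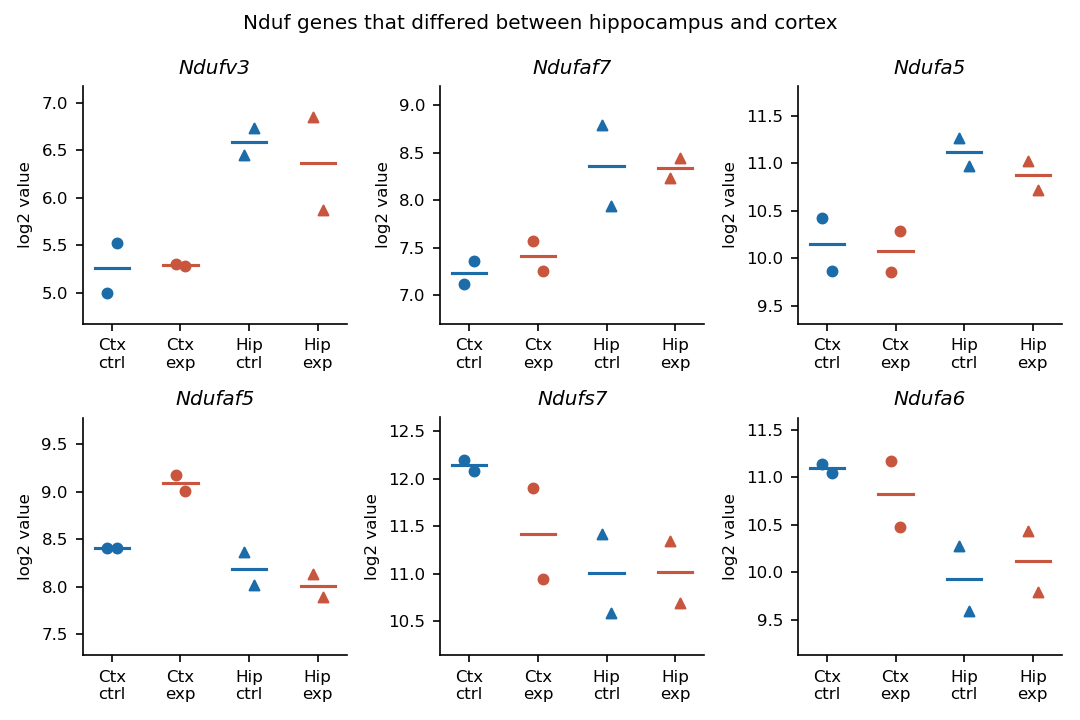
Each panel gives the log2 values of a called member on single arrays, by tissue and arm, with the group mean as a bar. Hippocampus and cortex do not overlap for 5 of the 6 genes, and for Ndufs7 exposed cortex number 6 at 10.94 lies within the hippocampal range.

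Among uncalled members, Ndufab1, the acyl carrier protein itself, read 12.20, 12.36, 11.94 and 12.02 in cortex and 11.77, 11.81, 11.58 and 11.79 in hippocampus. Its hippocampal values were all lower, with a log2 difference of -0.39 (SE 0.15) that missed the threshold (adjusted p = 0.069). Ndufa4l2, a paralogue of Ndufa4 known to be induced by hypoxia, read 4.02, 3.73, 4.14 and 3.55 in cortex and 4.16, 4.37, 4.59 and 4.71 in hippocampus. Hippocampus was higher on every array (log2 difference 0.60, SE 0.22, adjusted p = 0.060), and the cortex mean of 3.86 was under the filter limit of 3.94, a level not shown to be above background.

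By module, the Q module stood lower in hippocampus for 7 of its 8 members, with a median of -0.30, 2 called lower and 1 called higher. The distal pump had 6 of 10 lower and a median of -0.16, and the proximal pump 4 of 9 lower and a median of 0.16, with 0 called in either. In the vehicle arm alone 5 members were called, Ndufv3 (1.33), Ndufaf7 (1.13) and Ndufa5 (0.97) higher in hippocampus, beside 10.1% of all probe sets, and Ndufa6 (-1.16) and Ndufs7 (-1.14) lower, beside 7.63%. In the exposed arm alone the call was Ndufaf5 (-1.08, adjusted p = 0.015), beside 5.22% of all probe sets lower and 9.25% higher. The difference of these tissue differences is the interaction given above, in which no member was called.

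In the vehicle arm the member median log2 difference was -0.10 with all arrays and -0.21 without the 2 arrays high in Ttr. It was -0.05 without vehicle cortex number 6 alone, -0.22 without vehicle cortex number 1 and 0.05 without vehicle hippocampus number 6. With these arrays left out, fewer members were called, and fewer of all probe sets were too. The vehicle-arm calls of Ndufaf7 and Ndufa5 also ended after median centring and without vehicle hippocampus number 1, and that of Ndufs7 without the filter, without the trend and without either exposed hippocampal array. The exposed-arm call of Ndufaf5 ended without exposed cortex number 3 or 6 or exposed hippocampus number 6. Over both arms, 5 of the 6 members stayed called without the Ttr arrays. Centring each array on its median moved the all-probe median from 0.11 to -0.04, cut the share of calls that were higher in hippocampus from 62.2% to 44.5%, and left 11 members (23.9%) called, where 30.8% of all probe sets were. In the vehicle arm that share went from 56.9% to 41.0% and in the exposed arm from 63.9% to 49.1%. Neuron marker sums lay at log2 20.68 to 20.87 in cortex and 20.40 to 20.53 in hippocampus, and 4 of 10 neuron markers were called lower and 2 higher. Microglial sums lay at 12.14 to 12.45 and 12.62 to 12.80, but single markers went both ways. Of 9 microglial markers, 6 had higher means in hippocampus and 3 lower (median 0.17), with 1 called higher. Of 8 endothelial markers 4 were called lower in hippocampus (median -0.43), and of 5 ependymal markers tested 3 were called higher (median 0.89). Astrocyte markers had 3 of 9 called higher and 1 called lower (median 0.04), and oligodendrocyte markers 1 of 8 called higher. All 10 choroid plexus markers tested had higher means in hippocampus (median 1.74), with 2 called. Their part in the tissue differences was not tested.

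Windows around the start sites of these genes were read from RefSeq on build GRCm38.p6, 250 bases before to 50 after the start, for 41 of the 46 members (43 windows). They were searched on both strands for motifs of factors known to govern mitochondrial genes. The NRF1 motif (GCGCA, any 1 base, GCGC) was in 10 windows (23.3%, against 4.60% of all 32851 windows), the YY1 motif AAGATGGC in 8 (18.6% against 2.75%), the CREB1 motif TGACGTCA in 3 (6.98% against 1.79%), the GABPA motif CCGGAAG in 6 (14.0% against 8.86%), the SP1 motif GGGGCGGGG in 6 (14.0% against 11.4%) and the ESRRA motif TCAAGGTCA in 0 (against 0.423%). The 10 NRF1 windows belong to 9 genes, since overlapping windows of Ndufa5 hold the same site. No 2 different motifs overlapped, and 24 member genes held at least one. All 8 YY1 matches lay on the gene's own strand, 10 to 45 bases after the start. A match on the own strand anywhere at or after the start was seen in 31.5% of the 903 windows with that motif overall. A match describes letters and not a bound site.

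Of the 6 genes called between tissues, 4 held a match, and their windows are given to show where. Ndufa5 has another, overlapping window with the same site, which is not printed. Capitals mark the motif: NRF1 in the genes higher (Ndufa5) and lower (Ndufa6, Ndufaf5) in hippocampus, with SP1 following in Ndufa6, and YY1 in Ndufs7. The NRF1 match of Ndufa6 lies on the opposite strand, so its capitals show the reverse complement of the motif. The windows are chr6:24527641-24527940 (minus strand), chr15:82354242-82354541 (minus), chr2:140170396-140170695 (plus) and chr10:80249199-80249498 (plus), in the order printed. Each runs 5′ to 3′ on the gene's strand.
Ndufa5: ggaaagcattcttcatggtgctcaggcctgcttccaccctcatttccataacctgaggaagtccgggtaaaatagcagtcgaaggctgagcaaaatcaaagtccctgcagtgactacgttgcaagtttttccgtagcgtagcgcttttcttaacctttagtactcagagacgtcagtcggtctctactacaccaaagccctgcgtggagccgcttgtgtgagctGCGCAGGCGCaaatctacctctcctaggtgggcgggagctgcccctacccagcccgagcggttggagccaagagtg
Ndufa6: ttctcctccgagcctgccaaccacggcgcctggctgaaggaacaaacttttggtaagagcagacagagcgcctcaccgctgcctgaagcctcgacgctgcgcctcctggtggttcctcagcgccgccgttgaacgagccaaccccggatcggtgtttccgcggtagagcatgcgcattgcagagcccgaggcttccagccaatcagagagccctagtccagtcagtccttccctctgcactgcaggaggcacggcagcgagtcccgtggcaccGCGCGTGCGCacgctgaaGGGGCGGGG
Ndufaf5: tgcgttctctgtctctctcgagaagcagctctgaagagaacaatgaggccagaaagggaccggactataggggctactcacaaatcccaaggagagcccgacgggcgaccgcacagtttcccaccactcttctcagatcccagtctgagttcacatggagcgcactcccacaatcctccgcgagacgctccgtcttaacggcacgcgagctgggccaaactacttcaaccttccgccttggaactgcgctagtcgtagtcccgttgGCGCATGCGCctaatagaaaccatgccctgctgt
Ndufs7: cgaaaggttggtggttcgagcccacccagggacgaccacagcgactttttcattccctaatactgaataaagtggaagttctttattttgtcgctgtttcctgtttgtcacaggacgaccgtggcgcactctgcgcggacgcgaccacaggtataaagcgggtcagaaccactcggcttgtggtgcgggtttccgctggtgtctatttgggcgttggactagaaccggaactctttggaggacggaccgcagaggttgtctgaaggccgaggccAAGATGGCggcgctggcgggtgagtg
Ndufv3 and Ndufaf7, both called higher in hippocampus, held no match in their windows.

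The 2 arrays of each exposed group differed in one direction for most Nduf genes, a lean that all probe sets did not show. In exposed hippocampus, number 3 was higher than number 6 for 39 of 46 members (84.8%, against 47.9% of all probe sets), with a median difference of 0.47 against -0.02. In exposed cortex, number 3 was higher for 34 members (73.9% against 47.4%), with a median of 0.19 against -0.02. In vehicle hippocampus number 1 was higher than number 6 for 28 (60.9% against 55.2%), and in vehicle cortex for 22 (47.8% against 53.7%). Sample number 3 was above number 6 in both tissues for 30 members, or 65.2%, against 27.3% of all probe sets.

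The shift in exposed hippocampus ran through every module of the complex. The N module had 7 of 8 members higher on number 3, the Q module 7 of 8, the proximal pump 8 of 9, the distal pump 9 of 10 and the Ndufaf factors 6 of 8. Ndufa2, an N module accessory subunit, read 10.25 on number 3 and 8.74 on number 6, the widest gap of any member in a group, and also 10.10 and 9.17 in vehicle hippocampus. Ndufs1, the large iron-sulfur core subunit of the N module, ran the other way, at 11.06 and 11.50. Its value was also lower on number 3 in exposed cortex, at 10.81 against 11.40. Gaps over 0.5 on the log2 scale were found for 20 members in exposed hippocampus, 18 in vehicle hippocampus, 13 in exposed cortex and 5 in vehicle cortex.

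Exposed hippocampus number 6 was the lowest of the 8 arrays for 15 members (32.6%, against 9.30% of all probe sets), and number 3 the highest for 12 (26.1% against 11.9%). The median absolute gap between the exposed hippocampal arrays, 0.47, compares with a median absolute exposure difference of 0.16 in that tissue. In cortex these values were 0.255 and 0.19. Over all probe sets they were 0.32 and 0.215 in hippocampus and 0.30 and 0.225 in cortex. A gap between single arrays varies more by design than a difference between means of 2 arrays. Complex V genes, which encode ATP synthase, leaned the same way: 16 of 18 were higher on number 3 in exposed cortex and 15 of 18 in exposed hippocampus, and 16 of 18 were higher on number 1 in vehicle hippocampus. Counts in that order were 17, 18 and 19 of 23 for complex IV. For complex III they were 9, 10 and 13 of 15, and for complex II 6, 5 and 6 of 8. Median array values did not differ in step, at 5.38 and 5.37 for exposed hippocampus and 5.25 and 5.22 for exposed cortex. Other lists differed between these arrays too, in both directions. Summed cerebral cortex markers read log2 14.31 on exposed hippocampus number 3 and 13.82 on number 6, endothelial markers 13.13 and 12.48, and microglial markers 12.75 and 12.62. Sums there were lower on number 3 for oligodendrocyte markers (18.34 and 18.59), hippocampus markers (15.19 and 15.45), neuron markers (20.42 and 20.53) and ependymal markers (7.28 and 7.39). In exposed cortex the endothelial sums were 13.36 and 12.89 and the microglial sums 12.18 and 12.14, while the cortex marker sums ran the other way, at 16.07 and 16.54. Their part in the Nduf gaps was not tested. Over all members the typical spread within groups equalled that of other genes, with a median residual SD of 0.29 for both. It ran from 0.07 for Ndufs5 to 0.63 for Ndufa2.

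**Figure D4:**
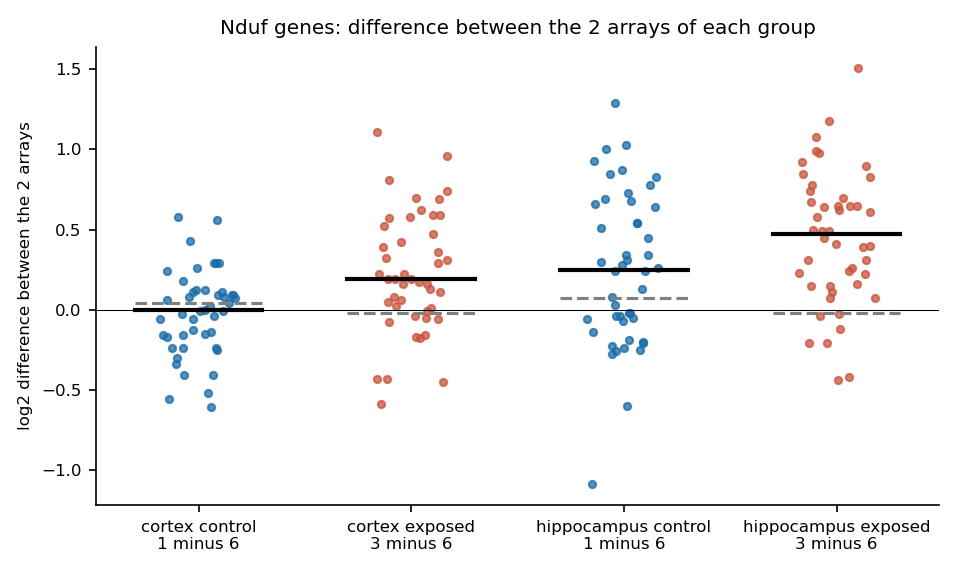
The difference between the 2 arrays of each group is shown for the 46 Nduf genes, in log2 units, lower-numbered minus higher-numbered sample. In exposed hippocampus 39 genes and in exposed cortex 34 genes lie above 0, against 28 and 22 in vehicle hippocampus and vehicle cortex.

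The rest of the respiratory chain was read from lists of its genes for comparison. After exposure in cortex, complex IV, cytochrome c oxidase with its assembly genes, had 18 of 23 tested genes lower (median -0.21). Complex V had 15 of 18 lower (median -0.15), with 0 called in either, and 53.1% of all probe sets were lower. Median deviations from each gene's mean over the arrays were 0.16 and 0.19 for complex IV in vehicle cortex. They were 0.10 on exposed number 3, near the vehicle arrays, and -0.27 on number 6. For complex V they were 0.12, 0.21, 0.13 and -0.22 in that order. Cox8a, a complex IV subunit, had a log2 difference of -0.74 (SE 0.31) and Atp5j, a stalk subunit of ATP synthase, one of -0.61 (SE 0.30), with adjusted p of 0.80 and 0.81. Complex II had 5 of 8 lower (median -0.13) and complex III 7 of 15 (median 0.02). In exposed hippocampus the counts lower were 5 of 8, 5 of 15, 15 of 23 and 13 of 18 for complexes II to V, again with 0 called. Of all probe sets, 48.9% were lower there. Aifm1, needed for import of respiratory chain subunits, had log2 differences of -0.97 (SE 0.35) in cortex and -0.90 (SE 0.35) in hippocampus, with adjusted p of 0.74 and 0.83.

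Between tissues, 11.9% of all probe sets were called lower in hippocampus and 19.5% higher. Complex IV had 6 genes called lower in hippocampus and 1 called higher, of 23. Cox6a2, a heart and muscle type subunit, was lower by a log2 difference of -1.88 (SE 0.27, adjusted p = 0.00026) and Cox7b by -0.80 (SE 0.15, adjusted p = 0.0017). Complex V had 2 of 18 called lower, Atpif1, the ATP synthase inhibitor (-0.80, SE 0.20), and Atp5b, its catalytic beta subunit (-0.59, SE 0.16). Complex III had 1 of 15 called lower, Uqcr11 (-0.66, SE 0.20), and complex II 0 of 8, of which 1 had an unadjusted p under 0.05 in limma. Of 21 genes of mitochondrial biogenesis and content, 4 were called higher in hippocampus and 2 lower, with a median of 0.04. The complex V count and these 4 higher genes lay near the shares over all probe sets. The 2 called lower, Ppargc1a and Ppargc1b, coactivators of mitochondrial biogenesis, had the smallest p of the list, with log2 differences of -0.96 (SE 0.17) and -1.21 (SE 0.24). Nubpl, which delivers iron-sulfur clusters to complex I, was higher by 0.88 (SE 0.21).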

How the data were processed

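Total RNA from cerebral cortex and hippocampus was hybridised to 8 1-colour arrays, 2 for each tissue and arm. The deposited values are log2 signals per probe set that the authors normalized with RMA, per the submitters' processing notes; base 2 was assumed, since RMA usually writes it and the values run from 1.59 to 19.93. RMA's version and summary level are unstated in those notes, and no detection value was used. Arrays carry no read depth, so their number, 2 per group, limits the precision. Members and lists were chosen with earlier results of these data known.

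Of 22206 probe sets, 19572 have 1 symbol in the platform annotation and 2634 none; all 46 members matched RefSeq of GRCm38.p6 by Entrez identifier. The lowest 33.3% by mean over the arrays (below 3.94) were left out. With limma 3.58.1 (R 4.3.3), lmFit estimated a mean for each of the 4 groups from the 8 arrays together, and eBayes moderated the variances along their trend with expression (prior degrees of freedom 7.92, residual 4), with two-sided tests and Benjamini-Hochberg adjustment over 14804 probe sets in each of 7 comparisons. Exposure over both tissues was fitted to means of arrays with the same arm and number (2 residual degrees of freedom). Given with each array were members past the threshold, at most 6 per comparison and direction, and the 4 members with the smallest unadjusted p per direction in both exposure comparisons and in the tissue comparison over both arms; for other chain lists, up to 2 genes with the smallest unadjusted p. Ndufa2 and Ndufs1 were singled out after their values were seen, for their gaps between arrays. The fit was tested on simulated data. Alternatives were other filters, quantile normalization, median centring, no trend, array weights, a replicate block, the compared arrays alone, each array left out, and both arrays high in Ttr left out.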

Additional observations from a re-analysis of the deposited data

Results flagged for a closer look

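Ndufaf6 had exposure differences of opposite sign in the tissues on every array. In cortex the vehicle arrays read 6.34 and 5.91 and the exposed arrays 5.73 and 5.90, and in hippocampus 5.66 and 5.42 against 6.41 and 5.77. The difference of the 2 exposure effects was 0.86 (SE 0.44) with an adjusted p of 1.00 by limma's interaction test, so the data do not set the tissues apart for this gene.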

How the results depend on the processing

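All counts of called members after exposure, in cortex, in hippocampus, over both tissues and for their difference, were 0 under each of the 16 alternatives run for each. The count of called probe sets, 1 for exposure in cortex, was 2 with array weights, 0 without the trend, 2 with only the compared arrays, 0 after quantile normalization, 3 without the arrays high in Ttr, and 0 to 2 with single arrays left out. For exposure in hippocampus it was 0 with array weights, without the trend, with only the compared arrays, after quantile normalization and without the Ttr arrays, and 0 to 56 with single arrays left out, 56 without vehicle hippocampus number 6. For exposure over both tissues it was 0 on single arrays, 0 with a random replicate block, 0 without the Ttr arrays and 0 to 5 with single arrays left out, and for the difference between tissues 1 with the replicate block and 0 to 30 with single arrays left out.

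Between tissues over both arms, 11 members were called after median centring, with a member median of -0.29, and 11 with the replicate block, or 23.9% of members against 30.8% and 37.2% of all probe sets; with single arrays left out the members called ranged from 4 to 9 and the median from -0.22 to 0.0525. In the exposed arm, 4 members were called with the replicate block and 0 to 2 with single arrays left out, where probe sets called ranged from 1074 to 2440. In the vehicle arm, members called ranged from 0 to 5 and probe sets from 1289 to 2532 with single arrays left out, and without the Ttr arrays the counts were 0 and 1155. The exposure median in hippocampus ranged from -0.18 to 0.18 with single arrays left out.

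In hippocampus the exposure difference of Ndufa10 became 0.25 and that of Ndufs6 0.04 without exposed number 6, Ndufb6 became -0.10 without exposed number 3, and without vehicle number 1, as without the Ttr arrays, Ndufb8 became -0.10 and Ndufs6 0.005. With single arrays left out these differences ranged from -0.93 to 0.25 for Ndufa10, -0.81 to 0.04 for Ndufs6, -0.10 to 0.98 for Ndufb6 and -0.10 to 0.99 for Ndufb8. Leaving out arrays leaves fewer samples, with a lone array assumed to vary like the other groups; for the other settings the cause was not tested. Of the values for named members under alternatives, 432 kept direction and side of the threshold, 41 lost it, 5 gained it and 7 turned. The replicate block pairs samples by number: deviations of same-numbered samples correlated at r = -0.0009 in vehicle and 0.28 in exposed arrays over all probe sets (0.14 and 0.41 over the members). With 2 numbers per arm and a vehicle correlation near 0 over all probe sets, pairing was not settled, and the exposure fit over both tissues averaged same-numbered arrays; on single arrays it likewise called 0 members. Signal over background could not be assessed, and 2 arrays per group limit all tests.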
